A study of Ovis aries with 9 samples.

Results

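Small heat shock proteins and the chaperones that serve muscle were followed through fetal development of the sheep back muscle. The genes were chosen by name: HSPB1, HSPB2, HSPB3, HSPB6, HSPB7, HSPB8, CRYAB, UNC45B, BAG3 and HSP90AA1. Of these 10 names 9 were found, each at a single locus, among the 22605 loci of the table. No locus carried the name HSPB7, which was not analysed here. All 9 loci passed the filter on low values (at least 1 FPKM in at least 3 libraries), as did 13086 loci in all. The longissimus dorsi, a large muscle beside the spine, was sampled from Chinese merino fetuses on days 85, 105 and 135 of gestation, called D85, D105 and D135 here. There were 3 libraries per day, and the groups differed in age alone, as far as the labels say, with no treatment, transgene or deletion named. FPKM is the number of fragments of a locus scaled by transcript length and by the fragments mapped in the library, so levels can be set side by side between genes of a library. Between libraries the values also move with the scaling, and each result is given with that in view.

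Small heat shock proteins are chaperones that bind unfolding proteins without using ATP and hold them until ATP-driven chaperones of the HSP70 and HSP90 families refold them. Striated muscle holds many of them, where they associate with the Z-disc, desmin and filamin. BAG3 links HSPB8 to HSP70 and hands damaged Z-disc proteins to autophagy, and UNC45B works with HSP90 to fold the myosin motor.

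How many reads lie behind each value is unknown, since FPKM holds no counts. Low values that repeat in fixed ratios put the depth of the other libraries at 0.994 to 1.20 times that of D85 replicate 1, from 70 to 115 loci per library. The D135 libraries were the deepest by this measure, at 1.12 to 1.20, and the other libraries were at 0.994 to 1.07. Depth thus went with day at D135, and its part in the changes was not tested. Nothing in the labels ties the 3 libraries of a day to 3 different fetuses. Every p-value therefore measures the spread of these libraries only, and that spread may be technical. Defining markers of skeletal muscle fibres were present throughout, and their summed level was 7353 to 9770 FPKM at D85, 8982 to 12050 at D105 and 17175 to 20754 at D135 (9 of 10 markers had a locus). D105 replicate 2 stood apart. Its fibroblast, tendon and cartilage markers summed to 6988 FPKM, where D105 replicates 1 and 3 had 2468 and 2491, and its adipocyte markers to 114 against 5.65 and 7.71. Of 6 heart muscle markers 3 had a locus. TNNI3, cardiac troponin I, was at 0.622 to 3.48 FPKM, and MYBPC3 and NKX2-5 stayed under 1 FPKM in every library. In whole muscle, fewer cells of a type and less RNA per cell cannot be told apart.

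HSPB1 (locus MSTRG.10006), also called HSP27, caps and protects actin filaments. It was at 33.9, 49.4 and 51.0 FPKM in the D85 libraries, at 70.0, 61.3 and 55.8 at D105, and at 60.1, 66.7 and 76.8 at D135. Every D105 and D135 library stood above every D85 library, while D105 and D135 overlapped. Its level rose between D85 and D135 by a log2 change of 0.60 ± 0.18 SE on the log2(FPKM + 1) scale (limma adjusted p = 0.0239), from a mean of 44.8 ± 9.44 to 67.9 ± 8.43 FPKM (SD, n = 3). The call was lost without D85 replicate 1, D135 replicate 2 or D135 replicate 3, with adjusted p up to 0.0754.

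HSPB8 (MSTRG.7885), also called HSP22, is the partner of BAG3 in selective autophagy. It was at 27.7, 14.4 and 10.3 FPKM at D85, at 24.6, 24.2 and 42.6 at D105, and at 33.7, 38.4 and 46.7 at D135. The D135 libraries all lay above those of D85, and the D105 libraries reached into both ranges. From D85 to D135 HSPB8 rose by a log2 change of 1.24 ± 0.35 SE (limma adjusted p = 0.0221), or 2.27 times as a ratio of mean FPKM. Leaving out D85 replicate 2, D85 replicate 3, D135 replicate 2 or D135 replicate 3 ended the call, with adjusted p up to 0.0679.

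CRYAB (MSTRG.7290) encodes alpha-B crystallin, the small heat shock protein that binds desmin and titin. Its FPKM was 19.1, 18.2 and 21.8 at D85, 30.7, 16.9 and 12.8 at D105, and 28.8, 31.1 and 39.4 at D135. The D85 libraries lay close together, the D105 libraries spread below and above them, and the D135 libraries were all above those of D85. The difference from D85 to D135 did not pass (log2 change 0.71 ± 0.28 SE, limma adjusted p = 0.0682), nor did that from D105 to D135 (0.77 ± 0.28, adjusted p = 0.0604). The former passed without D105 replicate 1 (adjusted p = 0.0107), without D105 replicate 3 (adjusted p = 0.0370) and with only the D85 and D135 libraries fitted (adjusted p = 0.0102). D105 replicate 1 was the high library of its day, and without it the latter became 1.10 with an adjusted p of 0.00894.

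HSPB6 (MSTRG.6963), known as HSP20, is abundant in smooth as well as striated muscle. It was at 3.50, 7.06 and 4.97 FPKM at D85, at 8.19, 16.8 and 8.05 at D105, and at 15.1, 6.28 and 15.4 at D135. All D105 libraries were above all D85 libraries, but D135 replicate 2 fell back within the D85 range. The change from D85 to D135 was 1.05 ± 0.40 SE (limma adjusted p = 0.0619) and became 1.43 with an adjusted p of 0.0196 without that library. It also passed without D105 replicate 2 (adjusted p = 0.0444). Smooth muscle and pericyte markers, 9 of 10 with a locus and none at 0, summed to 191 to 225 FPKM at D85, 155 to 235 at D105 and 134 to 161 at D135, and D135 replicate 2 had the lowest sum. Slow fibre markers summed to 7326, 3250 and 5788 FPKM in D135 replicates 1, 2 and 3, also lowest in replicate 2. Skeletal muscle fibre markers were lowest of that day in replicate 1, at 17175 FPKM, and adipocyte markers highest in replicate 2, at 72.2 FPKM. The part of these markers in the HSPB6 values was not tested.

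HSPB3 (MSTRG.7618) is a muscle-restricted small heat shock protein that forms a complex with HSPB2. It was at 2.06, 3.36 and 2.08 FPKM at D85, at 19.2, 11.2 and 2.62 at D105, and at 17.4, 14.9 and 3.84 at D135. In both later days 2 libraries were high and replicate 3 was low, so that D105 replicate 3 lay within the D85 range and D135 replicate 3 just above it. The highest library of a day was 7.33 times the lowest at D105 and 4.54 times at D135, against 1.63 times at D85. The difference between D85 and D135 did not pass (log2 change 1.70 ± 0.69 SE, limma adjusted p = 0.0751). It was called without D135 replicate 3 (2.31, adjusted p = 0.0284) and without D105 replicate 3 (1.70, adjusted p = 0.0310), and with only the D85 and D135 libraries fitted (adjusted p = 0.0385).

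HSPB2 (MSTRG.7291), first described as a binding protein of the myotonic dystrophy kinase, jumped between libraries of one day. It was at 0.000237, 0.000715 and 6.48 FPKM at D85, at 0.000886, 43.6 and 0.000701 at D105, and at 42.8, 34.1 and 32.7 at D135. It was thus close to 0 in 4 libraries, intermediate in D85 replicate 3, and at D135 levels in D105 replicate 2 and all D135 libraries. The pooled SD within days was 2.07 on the log2(FPKM + 1) scale, and only 0.481% of the tested loci had a larger one. Among tested loci 42 had a library under 0.01 FPKM beside another of at least 30 FPKM. HSPB2 was the 1 of these whose lowest value was above 0. Each library held 11 to 19 loci with values above 0 and under 0.001 FPKM.

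The jumps of HSPB2 were not seen at CRYAB and the 3 loci on its other side. HSPB2 and CRYAB follow each other in the gene order of the RefSeq table, and C15H11orf52, DIXDC1 and DLAT come next in the deposited numbering of loci. CRYAB stayed between 12.8 and 39.4 FPKM in all 9 libraries, and DLAT, a subunit of pyruvate dehydrogenase, between 7.56 and 14.0. DIXDC1 stayed between 2.25 and 4.49 FPKM and C15H11orf52 between 0.0823 and 0.306. The ratio of HSPB2 to CRYAB was 0.829 to 1.48 in the D135 libraries, 2.57 in D105 replicate 2 and 0.297 in D85 replicate 3. Just before CRYAB in that numbering comes the second of the pair of loci named PPP2R1B (MSTRG.7289), a scaffold subunit of protein phosphatase 2A. It was at 11.0, 9.53 and 4.61 FPKM in D85 replicate 3, D105 replicate 2 and D135 replicate 2 and listed at 0 in the other 6 libraries. How the near-zero estimates of HSPB2 arose was not tested.

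**Figure D1:**
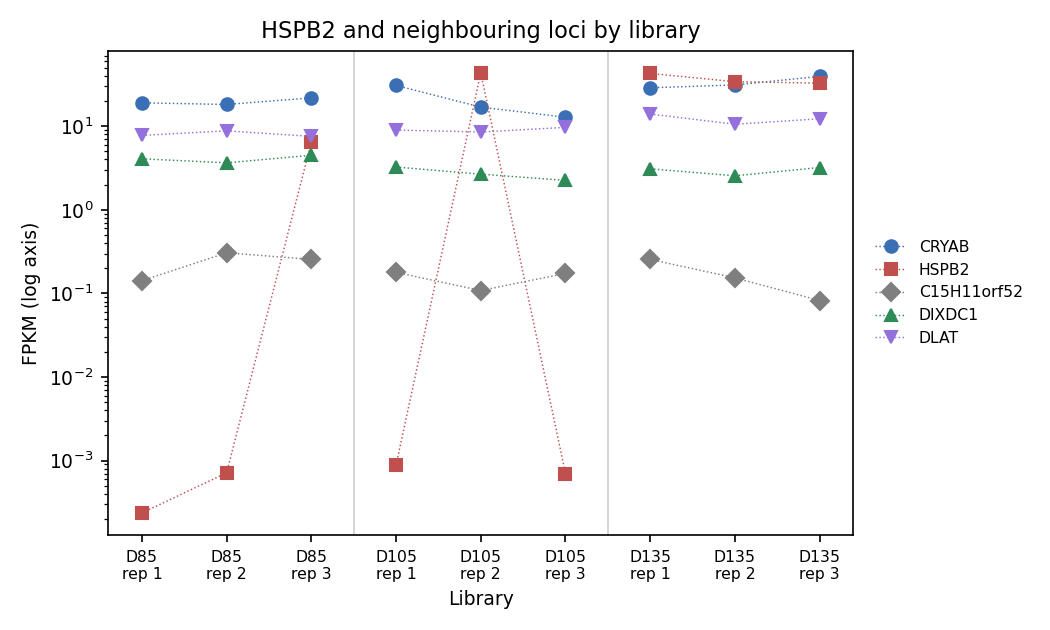
HSPB2 and 4 nearby loci in each of the 9 libraries, in FPKM on a log axis, with a colour and marker shape per locus and dotted lines only to guide the eye. HSPB2 lies under 0.001 FPKM in 4 libraries and between 32.7 and 43.6 FPKM in another 4, while CRYAB ranges from 12.8 to 39.4, DLAT from 7.56 to 14.0, DIXDC1 from 2.25 to 4.49 and C15H11orf52 from 0.0823 to 0.306 FPKM.

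Of the earlier libraries only D85 replicate 3 and D105 replicate 2 reached 1 FPKM, so HSPB2 passed the filter only with its D135 libraries. Its place among the tested loci thus depended on the day where it was high. The fitted rise of HSPB2 from D85 to D135 was a log2 change of 4.25 ± 1.46 SE (limma adjusted p = 0.0439), with every D135 library above every D85 library. That call ended in 5 of 9 fits that left out a library (D85 replicate 1 or 2, or any D135 library), with adjusted p up to 0.121, and also with a pseudocount of 0.1 (adjusted p = 0.0655), without a filter (0.0666) and after quantile normalization (0.0586). With the values under 0.01 FPKM treated as missing, which dropped 2 D85 and 2 D105 libraries, D135 was higher than the remaining D85 library by 2.32 and lower than the remaining D105 library by a log2 change of -0.26. As deposited, the D135 against D105 change was 3.39 ± 1.46 SE and did not pass (adjusted p = 0.0989). Without D105 replicate 2 it was 5.22 with an adjusted p of 0.00652. That library also had the highest sums of fibroblast and adipocyte markers. Adipocyte markers summed to 35.4, 72.2 and 13.8 FPKM in D135 replicates 1, 2 and 3, against 2.26 to 16.4 at D85. The fibroblast, tendon and cartilage sums were 1366 to 3332 FPKM at D135 and 2005 to 3193 at D85. The part of these markers in the HSPB2 levels was not tested.

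BAG3 (MSTRG.9534), the co-chaperone that joins HSPB8 to HSP70, had the lowest mean FPKM of the 9 genes at D105 and D135. Single libraries differed: HSPB2 was below BAG3 in D105 replicates 1 and 3, HSPB6 in D135 replicate 2, and HSPB3 in replicate 3 of both days. The values of BAG3 were 3.31, 5.65 and 5.19 FPKM at D85, 3.49, 6.41 and 3.83 at D105, and 9.06, 6.55 and 7.43 at D135. Every D135 library was above every earlier library, by little in the case of D105 replicate 2. The change from D105 to D135 was 0.67 ± 0.24 SE (limma adjusted p = 0.0562) and that from D85 to D135 was 0.62 ± 0.24 SE (adjusted p = 0.0635), and neither passed. Without D105 replicate 2 these were 0.89 (adjusted p = 0.0202) and 0.62 (adjusted p = 0.0325), and without D85 replicate 1 the D105 to D135 change also passed (adjusted p = 0.0431). Both passed with library weights (adjusted p = 0.0310 and 0.0445). The ratio of HSPB8 to BAG3 ranged from 1.99 to 11.1 over the libraries with all days overlapping.

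UNC45B (MSTRG.5344), the myosin chaperone of striated muscle, went the other way. It was at 87.0, 92.1 and 92.9 FPKM at D85, at 97.3, 48.4 and 78.1 at D105, and at 55.0, 49.8 and 48.1 at D135. The D85 and D135 libraries formed tight ranges apart from each other, and D105 replicate 2 sat in the D135 range. From D85 to D135 UNC45B fell by a log2 change of -0.82 ± 0.22 SE (limma adjusted p = 0.0180), from 90.7 ± 3.23 to 51.0 ± 3.56 FPKM. This is -0.47 relative to the median locus, and the change was -0.40 (adjusted p = 0.230) once libraries were scaled by median of ratios and -0.73 (adjusted p = 0.0591) after quantile normalization. Leaving out D135 replicate 2 or 3 gave adjusted p of 0.0517 and 0.0522. The step from D105 to D135 did not pass (-0.49, adjusted p = 0.116), but did without D105 replicate 2 (-0.77, adjusted p = 0.00645).

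HSP90AA1 (MSTRG.8281) encodes the inducible cytosolic HSP90, which with UNC45B folds myosin, and was the highest of the 9 genes on every day. It was at 199, 181 and 255 FPKM at D85, at 220.4, 192 and 263 at D105, and at 125, 141 and 177 at D135. Every D135 library was below every earlier library, and D85 and D105 overlapped. The level fell between D105 and D135 by a log2 change of -0.61 ± 0.19 SE (limma adjusted p = 0.0354). The fall was -0.28 relative to the median locus and -0.21 after median-of-ratios scaling (adjusted p = 0.550). The call also ended without a filter (0.0539) and without D105 replicate 1 or 3 or D135 replicate 1 or 2, with adjusted p up to 0.103. The D85 to D135 difference was -0.52 ± 0.19 SE (adjusted p = 0.0536) and did not pass. It passed without D135 replicate 3 (-0.66, adjusted p = 0.0330), with library weights (adjusted p = 0.0421) and with values under 0.01 FPKM treated as missing (adjusted p = 0.0479).

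**Figure D2:**
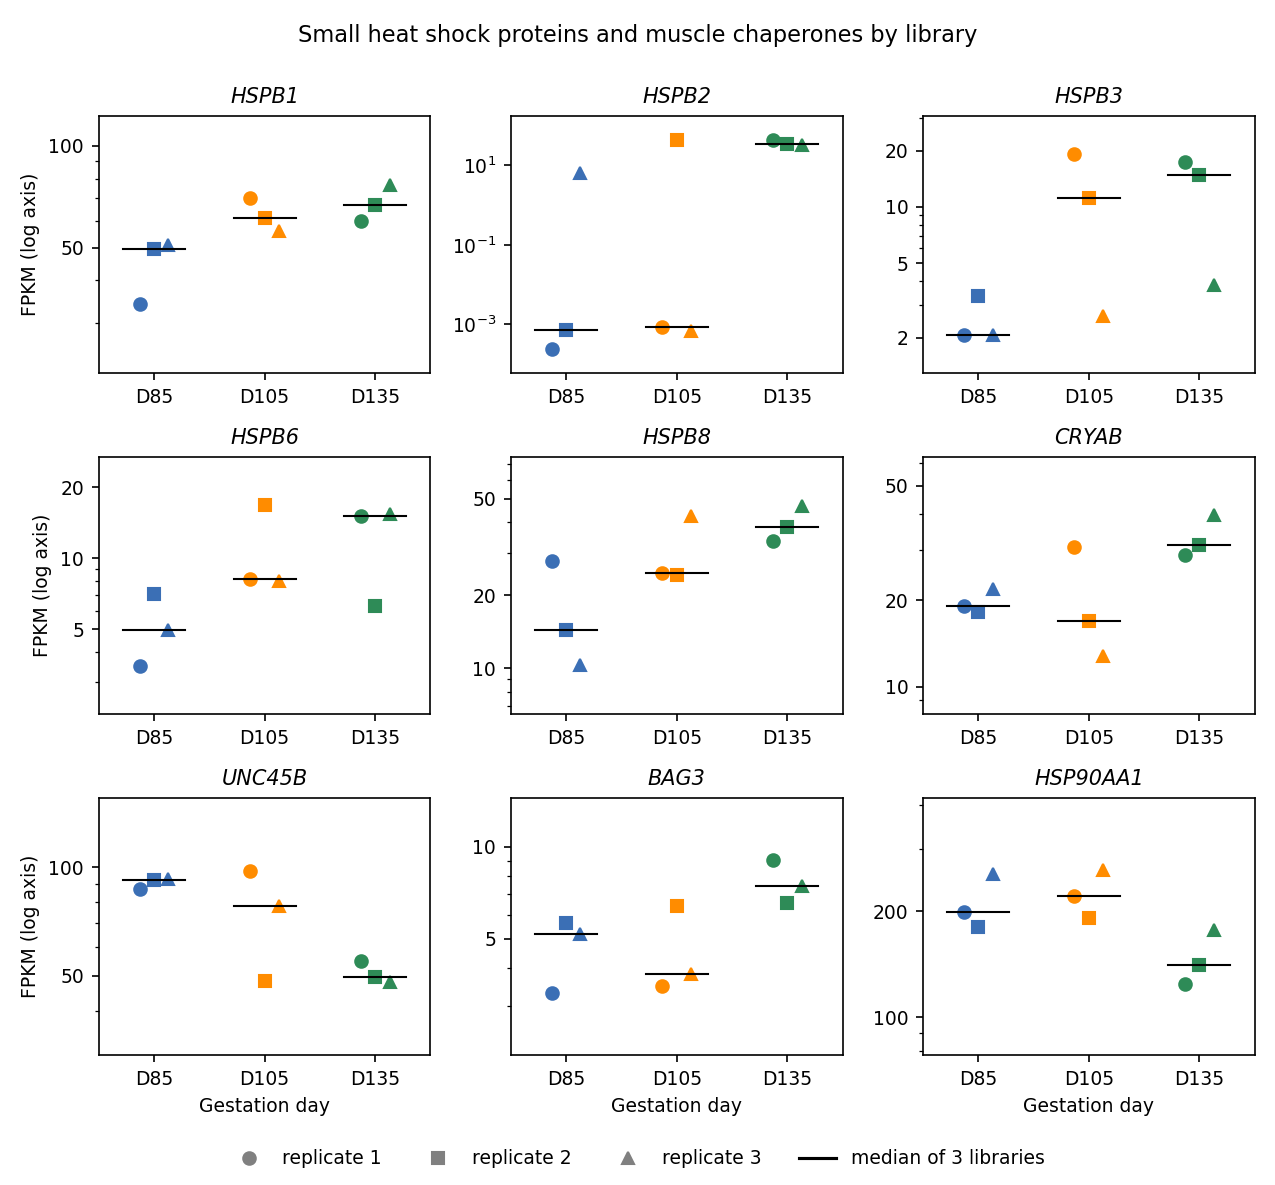
FPKM of the 9 genes in each library on log axes, with a panel per gene, a colour per gestation day, a marker shape per replicate and a line at the median of the 3 libraries. HSPB1, HSPB2, HSPB3, HSPB8, CRYAB and BAG3 are higher in every D135 library than in every D85 library, UNC45B and HSP90AA1 lower, and HSPB6 overlaps.

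Between genes, the order of levels changed along development. At D85 the order was HSP90AA1, UNC45B, HSPB1, CRYAB, HSPB8, HSPB6, BAG3, HSPB3 and HSPB2 by mean FPKM. The first 3 did not overlap with their neighbours, CRYAB and HSPB8 overlapped, and so did the last 4 in turn. By D135 HSPB1 had passed UNC45B (67.9 ± 8.43 against 51.0 ± 3.56 FPKM, without overlap), and HSPB8, HSPB2 and CRYAB followed at 39.6 ± 6.61, 36.5 ± 5.45 and 33.1 ± 5.58 FPKM with overlapping libraries. HSPB6 and HSPB3 overlapped at 12.2 ± 5.17 and 12.0 ± 7.22 FPKM. BAG3 came last by its mean, 7.68 ± 1.28 FPKM, with libraries that overlapped those of both. At D105 HSP90AA1 stood apart and HSPB1 stood above HSPB8 without overlap, while all other neighbours in the order overlapped. The 6 small heat shock proteins summed to 91.8 ± 5.27 FPKM at D85, 149.5 ± 26.2 at D105 and 201 ± 12.1 at D135 (SD, n = 3). Without HSPB2 the sums were 89.6 ± 3.17, 135 ± 16.0 and 165 ± 15.0 FPKM, and each D135 sum was still above every earlier one.

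The comparison of D105 with D85 asked what changed over the earlier interval. None of the 9 genes passed in limma. The background was low: 0.145% of all tested loci were called higher and 0.0535% lower. At an unadjusted p under 0.05 there were 3 genes, HSPB1 (log2 change 0.49 ± 0.18 SE, adjusted p = 0.324), HSPB6 (0.92 ± 0.40, adjusted p = 0.405) and HSPB8 (0.83 ± 0.35, adjusted p = 0.395), all toward higher values at D105. Of all tested loci 12.3% had such a p. HSPB3 had the largest difference (1.48 ± 0.69, adjusted p = 0.439), followed for size by HSPB6 and HSPB2 (0.86 ± 1.46, adjusted p = 0.866). CRYAB, BAG3 and HSP90AA1 were within 0.10 of no change, and UNC45B was at -0.33 ± 0.22 (adjusted p = 0.593).

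Over the later interval, D135 against D105, 0 genes were called higher and 1 lower, HSP90AA1. Of all tested loci 4.47% were called higher and 35.0% lower, and the median locus moved by a log2 change of -0.33, so a lower call was the commoner one in these values as deposited. After median-of-ratios scaling, which centres the libraries on loci present in all of them, CRYAB (1.16 ± 0.28 SE, limma adjusted p = 0.0282) and BAG3 (1.02 ± 0.23, adjusted p = 0.0204) were called higher and none lower. On that scale 9.15% of all loci were higher and 8.00% lower.

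Over the whole span, D135 against D85, 3 genes rose (HSPB1, HSPB2 and HSPB8), 1 fell (UNC45B) and 5 did not pass. The median change of the 9 genes was 0.71 against -0.35 for all tested loci, of which 6.90% were called higher and 39.7% lower. By libraries alone, 6 of the 9 genes were higher in every D135 library and 2 lower, where 9.42% of all loci were higher throughout and 48.8% lower throughout. All 9 genes had an unadjusted p under 0.05, as did 54.3% of all tested loci. With median-of-ratios scaling 6 genes were higher and none lower: HSPB1 (1.03 ± 0.19 SE), HSPB2 (4.55 ± 1.43), HSPB6 (1.43 ± 0.39), HSPB8 (1.65 ± 0.35), CRYAB (1.13 ± 0.28) and BAG3 (0.99 ± 0.23), with adjusted p of 0.0476 for HSPB2 and 0.00515 to 0.0278 for the others. The background on that scale was 13.8% higher and 14.0% lower, so the split between directions moved with the scaling. HSPB1, HSPB2 and HSPB8 were called higher on both of these scales, but HSPB2 was not called after quantile normalization. Skeletal muscle fibre markers moved with these genes, with 7 of 9 tested called higher and 0 lower as deposited, and their part in the changes was not tested.

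**Figure D3:**
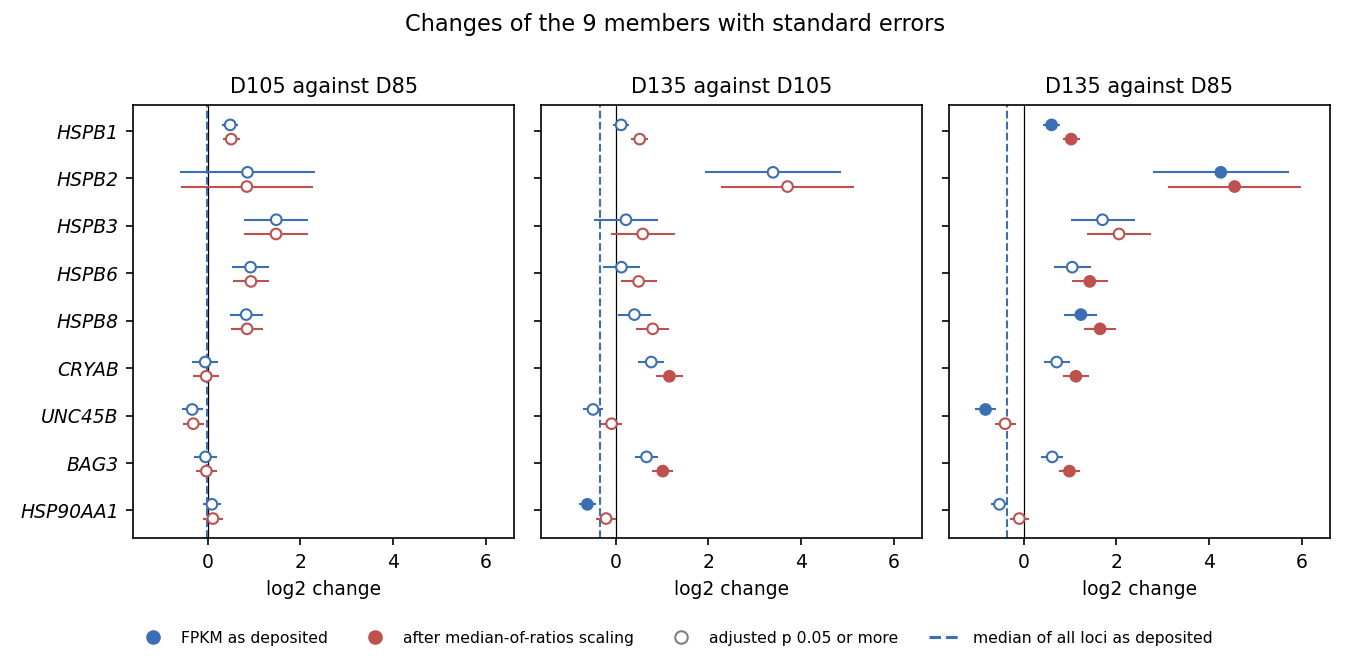
Log2 changes of the 9 genes with bars of 1 standard error, for the 3 comparisons of days, on the log2(FPKM + 1) scale. Blue is FPKM as deposited and red the same after median-of-ratios scaling, filled points have a limma adjusted p under 0.05, and the dashed line is the median of all tested loci as deposited. In D135 against D85 the small heat shock proteins and BAG3 lie to the right of zero on both scales and UNC45B and HSP90AA1 to the left.

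HSP90AA1 and UNC45B each have a paralog that non-muscle cells use widely, HSP90AB1 and UNC45A, and a ratio within a library is free of scaling between libraries. HSP90AB1, the constitutive cytosolic HSP90, fell from 239.6 ± 10.7 FPKM at D85 to 109.9 ± 10.7 at D135 (log2 change -1.12 ± 0.13 SE, limma adjusted p = 0.000492), and remained lower after median-of-ratios scaling (-0.69, adjusted p = 0.00824). The ratio of HSP90AA1 to HSP90AB1 was 0.810, 0.797 and 1.04 at D85, 1.03, 1.19 and 1.37 at D105, and 1.25, 1.28 and 1.47 at D135. All D135 ratios were above all D85 ratios (exact permutation test, two-sided, p = 0.1, the smallest that 3 against 3 allows, adjusted 0.6 over 12 ratio tests). The ratio of UNC45B to UNC45A was 12.5, 12.5 and 12.8 at D85 and 11.2, 13.6 and 12.3 at D135 (exact permutation p = 0.7), with the lowest value, 8.35, in D105 replicate 2. UNC45A fell from 7.20 ± 0.206 to 4.16 ± 0.658 FPKM (-0.68, limma adjusted p = 0.00276), and after median-of-ratios scaling was at -0.32 (adjusted p = 0.0640). These ratios were chosen after the values were seen.

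**Figure D4:**
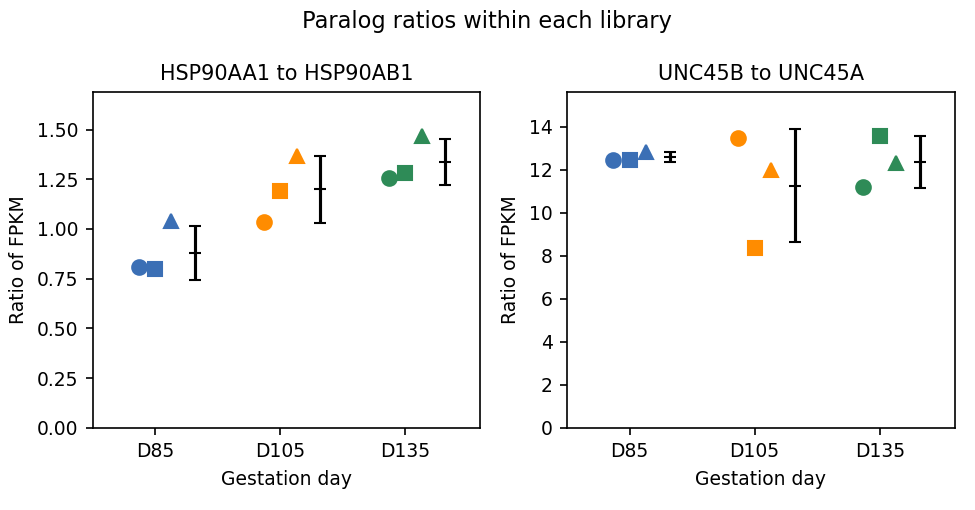
Ratio of FPKM within each library for HSP90AA1 to HSP90AB1 and for UNC45B to UNC45A, with a colour per day, a marker shape per replicate (circle, square and triangle for 1, 2 and 3), and bars for the mean and SD of 3 libraries. The first ratio is 0.797 to 1.04 at D85 and 1.25 to 1.47 at D135, and the second overlaps between all days.

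The other chaperones of the cell were counted in lists, first by their call between D85 and D135. In D105 against D85 limma called 0 of the 115 distinct genes tested in these lists, with 10 at an unadjusted p under 0.05, a smaller share than the 12.3% of all tested loci. Of 11 tested genes of the HSP70 and HSP110 families 0 rose and 4 fell, with a median of -0.25 beside -0.35 for all loci. Of all tested loci 39.7% fell and 6.90% rose, so the counts of the HSP70, DNAJ, HSP90 and CCT lists that fell were all near or below the background share. Those with the largest falls were HSPA12A, a divergent HSP70 (-0.67, limma adjusted p = 0.0138), HSPA4L, an HSP110 (-0.43, adjusted p = 0.0179), and HSPA14, which works at the ribosome (-0.26, adjusted p = 0.0308). HSPA4L was at 0.416 to 0.500 FPKM at D135 and passed the filter through D85 and D105 libraries alone, the days where it was higher. HSPA8, the constitutive HSP70 and the highest of the family, was at 362 ± 69.8 FPKM at D85 and 233 ± 25.3 at D135 (-0.62, adjusted p = 0.0574). With a library left out, 4 fell only in the fits without D85 replicate 2 or D105 replicate 2, and 1 or 2 fell in the others. After median-of-ratios scaling the HSP70 list had 0 calls in either direction, where 13.8% of all loci were higher and 14.0% lower.

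Of 15 cytosolic and nuclear DNAJ proteins, which drive the ATP cycle of HSP70, 0 rose and 5 fell, below the 39.7% of all loci that fell. They included DNAJC9, which also handles histones (-1.19, limma adjusted p = 0.00402), the splicing-associated DNAJC8 (-0.94, adjusted p = 0.0361) and DNAJB2 (-0.61, adjusted p = 0.0260). There were 2 without D135 replicate 2 and 3 without D85 replicate 1 or 2, and median-of-ratios scaling left 1 lower and 1 higher. On that scale 13.8% of all loci were higher and 14.0% lower. Among 19 HSP90 co-chaperones and paralogs 0 rose and 6 fell, again below the share of all loci, with HSP90AB1, UNC45A and TOMM34 (-0.67, adjusted p = 0.0193) the most changed. TOMM34 was at 0.679 to 0.832 FPKM at D135 and passed the filter through D85 and D105 libraries alone. After median-of-ratios scaling 1 gene of the list was higher and 1, HSP90AB1, lower. SMYD1, the methyltransferase that partners UNC45B in myosin assembly, was at 11.3 ± 2.57 FPKM at D85 and 7.99 ± 2.28 at D135 and did not pass (-0.46, adjusted p = 0.112). Of 15 subunits of the chaperonin CCT and prefoldin, which fold actin and tubulin, 0 rose and 5 fell, also below 39.7%, with CCT8 (-0.80, adjusted p = 0.00185), CCT6A (-0.59, adjusted p = 0.0171) and PFDN6 (-0.51, adjusted p = 0.0144) foremost. Their count was 3 without D85 replicate 1, D85 replicate 3 or D135 replicate 1, and under median-of-ratios scaling 2 subunits were higher and 0 lower.

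Endoplasmic reticulum chaperones had the lowest median of these lists. Of 18 tested, 0 rose and 14 fell, where 39.7% of all loci fell, with a median of -0.88 beside -0.35 for all loci, and 13 or 14 fell whichever library was left out. FKBP10, a collagen prolyl isomerase, was at -1.24 (limma adjusted p = 0.0159), CANX, calnexin, at -1.08 (adjusted p = 0.000850) and PDIA4, a protein disulfide isomerase, at -1.07 (adjusted p = 0.00203). After median-of-ratios scaling 5 were lower and 1 higher, where 14.0% of all loci were lower and 13.8% higher. In that fit CANX (-0.67, adjusted p = 0.0115) and PDIA4 (-0.66, adjusted p = 0.0341) were called and FKBP10 was not (-0.84, adjusted p = 0.0879). Of smooth muscle and pericyte markers 5 of 9 tested were called lower and 1 higher, where 39.7% of all loci were lower. Fibroblast, tendon and cartilage markers had 1 of 10 tested called lower and 0 higher. The part of either cell type in these counts was not tested. Of 11 mitochondrial chaperones 2 rose and 1 fell: HSPA9, mitochondrial HSP70, went from 18.7 ± 1.98 to 27.1 ± 2.51 FPKM (0.51, adjusted p = 0.0111), DNAJC19 was at 0.32 (adjusted p = 0.0389) and the disaggregase CLPB at -0.58 (adjusted p = 0.0166). Without any single library 1 or 2 rose, with 2 only in the fits without D85 replicate 2 or D135 replicate 3, and 0 fell without D135 replicate 3. The shares of all loci as deposited were 6.90% that rose and 39.7% that fell. Median-of-ratios scaling gave 5 higher and 0 lower, where 13.8% of all loci were higher and 14.0% lower.

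Genes that work with BAG3 and HSPB8 in selective autophagy were listed together with the other BAG proteins and the heat shock factors. Of 12 tested genes of that list 3 rose and 3 fell, where 6.90% of all tested loci rose and 39.7% fell. SYNPO2, the Z-disc protein that docks BAG3 complexes, rose from 9.33 ± 2.20 to 16.4 ± 3.56 FPKM (0.75, limma adjusted p = 0.0367). SQSTM1, the autophagy receptor p62, rose from 23.2 ± 3.06 to 35.8 ± 4.16 FPKM (0.61, adjusted p = 0.00574), and STUB1, the ubiquitin ligase CHIP, from 26.8 ± 2.30 to 37.5 ± 7.92 FPKM (0.45, adjusted p = 0.0413). All 3 were also called higher after median-of-ratios scaling. BAG5 (-1.65, adjusted p = 0.0252), BAG4 (-0.65, adjusted p = 0.0169) and HSPBP1, a nucleotide exchange factor of HSP70 (-0.39, adjusted p = 0.0355), fell. Under median-of-ratios scaling only BAG5 did among them, and the list had 4 higher and 1 lower. The shares of all loci on that scale were 13.8% higher and 14.0% lower. BAG5 was at 4.24, 0.554 and 3.72 FPKM at D85 and at 0.131, 0.0254 and 0.0693 at D135, so that its D85 libraries also differed widely. It passed the filter through D85 and D105 libraries alone. HSF1, the factor that drives heat shock genes, was at 4.73 ± 0.705 FPKM at D85 and 4.08 ± 0.430 at D135 and did not pass (-0.17, adjusted p = 0.295). The count of genes that rose dropped to 1 without D85 replicate 1, D85 replicate 3, D105 replicate 3 or D135 replicate 2, and that of genes that fell dropped to 1 without any single D85 library and to 0 without D135 replicate 1 or 3.

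Known clients and partners at the Z-disc and filaments, the structures these chaperones protect, were mostly called higher. Of 14 tested, 9 rose, 0 fell and 5 did not pass, with a median of 0.55 beside -0.35 for all loci, of which 6.90% rose, and 7 to 9 rose whichever library was left out. ACTN2, the Z-disc alpha-actinin, rose from 224 ± 29.0 to 668 ± 20.1 FPKM (1.58, limma adjusted p = 0.000214), MYOT, myotilin, from 11.1 ± 1.76 to 32.9 ± 0.745 FPKM (1.50, adjusted p = 0.000183), and CSRP3, the muscle LIM protein, from 77.2 ± 22.4 to 186 ± 50.3 FPKM (1.27, adjusted p = 0.00937). After median-of-ratios scaling 10 were higher and 0 lower, where 13.8% of all loci were higher and 14.0% lower. TTN, the giant filament protein titin, which CRYAB binds, rose from 812 ± 129 to 1414 ± 53.9 FPKM (0.81, adjusted p = 0.00247), and was also called after median-of-ratios scaling (1.24, adjusted p = 0.00103). DES, desmin, was at 482 ± 136 FPKM at D85 and 690 ± 127 at D135 (0.54, adjusted p = 0.194), and its adjusted p was 0.0499 when libraries were scaled by median of ratios. FLNC, filamin C, the client of BAG3, was at 194 ± 19.8 and 174 ± 14.1 FPKM (-0.15, adjusted p = 0.436). Slow fibre markers summed to 764 to 1070 FPKM at D85, 688 to 1136 at D105 and 3250 to 7326 at D135, and their part in the Z-disc counts was not tested.

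From D105 to D135 the endoplasmic reticulum list had 0 genes that rose and 13 that fell, with a median of -0.69 beside -0.33 for all loci, and the Z-disc and filament list had 8 that rose and 1 that fell, with a median of 0.65. Of all tested loci 4.47% rose and 35.0% fell in that comparison. Median-of-ratios scaling gave 0 and 2 for the former and 9 and 0 for the latter, where 9.15% of all loci were higher and 8.00% lower. For D135 against D85 quantile normalization gave counts of higher and lower genes of 0 and 1 in the HSP70 list, 1 and 1 among DNAJ proteins, 0 and 1 among HSP90 co-chaperones and 0 and 1 for CCT and prefoldin. It gave 1 and 11 in the endoplasmic reticulum, 4 and 0 in mitochondria, 3 and 1 among BAG3 partners and 7 and 0 at the Z-disc and filaments. On that scale 1599 of all 13086 tested loci were higher and 1943 lower.

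**Figure D5:**
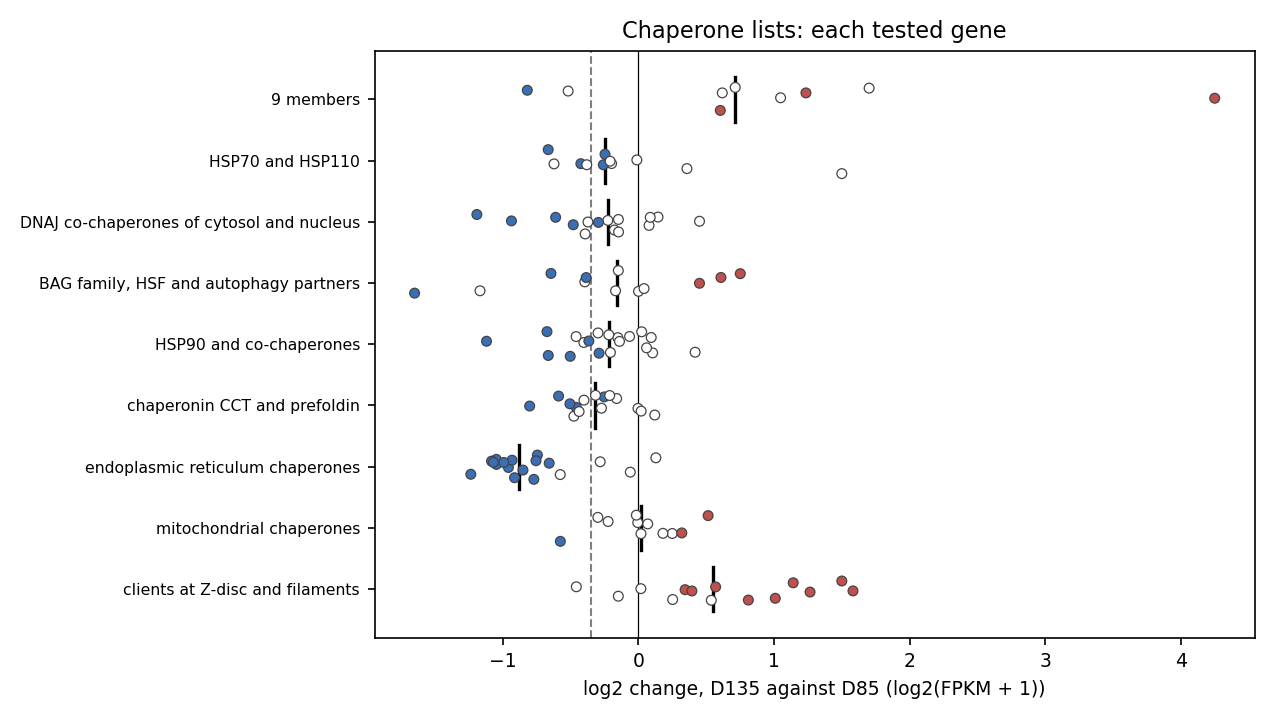
Log2 change from D85 to D135 of each tested gene, on the log2(FPKM + 1) scale as deposited, by list, with a vertical bar at the list's median and a dashed line at the median of all tested loci. Red points rose and blue points fell with a limma adjusted p under 0.05, and open points did not pass. The endoplasmic reticulum list lies furthest to the left with 14 of 18 genes that fell, and the Z-disc and filament list to the right with 9 of 14 that rose.

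The only other small heat shock family name with a tested locus, HSPB11, which works in cilia, was at 4.04 ± 0.671 FPKM at D85 and 3.03 ± 0.625 at D135 and did not pass (-0.32, limma adjusted p = 0.118). Its change was at 0.0064 after median-of-ratios scaling.

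To show which genes followed the same course, each of the 9 genes was compared with 5534 named loci of at least 5 FPKM on average, by the root mean square difference of centred log2(FPKM + 1) over the 9 libraries. The difference is a description with no test, over libraries that all genes share. Values were centred but not scaled, so it grows with the spread of a gene and its size cannot be compared between the 9 genes. Closest to UNC45B were NUDT16L1 (0.12), the laminin chain LAMB1 (0.12) and the unconventional myosin MYO10 (0.13). HSP90AA1 was near TTLL7 (0.13) and the receptor KIT (0.14). HSPB1 lay near FLI1, an endothelial and blood transcription factor, and the methyltransferase CARM1 (both 0.15), and PTRF, a caveolar coat protein (0.17). CRYAB followed the muscle genes FXYD1 (0.23), a sodium pump regulator, MYLPF (0.23), the fast myosin light chain, and SMPX (0.25), a small muscle protein. BAG3 was closest to FKBP3 (0.19), MRPL55 (0.20) and AMACR (0.21). HSPB8 was nearest to SBDS (0.30), the actin-severing GSN (0.31) and ACADS (0.34), and HSPB6 to FAM214A (0.32), SERPINB1 (0.34) and EFEMP1 (0.38). The calcium-binding HRC of the sarcoplasmic reticulum (0.65), HCFC1R1 (0.70) and LECT1 (0.73) were nearest to HSPB3. For HSPB2, the gene of widest spread among the 9, the nearest was ANKRD2, a stretch-responsive muscle ankyrin protein (1.31). The glycerol channel AQP7 (1.46) and the locus that joins MYH2 and MYH1 (1.50) came next. ANKRD2 was at 1.57, 0.826 and 1.84 FPKM at D85, at 2.43, 15.4 and 1.52 at D105, and at 10.9, 59.4 and 43.1 at D135, with D105 replicate 2 again the high library of its day.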

How the data were processed

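RNA from 9 longissimus dorsi libraries, 3 each at D85, D105 and D135, grouped by the titles and age labels, was measured by RNA sequencing. The authors deposited FPKM per locus in a single table, and per the file headers each of its 9 columns is a library. The submitters' processing notes list Bowtie2, TopHat2 and cutadapt. Genome build, assembler and counting method: not given in the sources used here. The same holds for which library ran on which of the sequencer models the design text names, so a batch could not be tested. FPKM is relative: a change in a few very high loci shifts all others.

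The 13086 loci that reached 1 FPKM in 3 or more libraries entered the test. Their log2(FPKM + 1) values, on which changes of low genes are understated, were fitted with limma 3.58.1 in R 4.3.3. All 9 libraries entered a single fit without a block, with eBayes and a trend, two-sided, Benjamini-Hochberg adjustment over all tested loci and a threshold of 0.05. A locus can pass the filter through the days where it is high. HSPB2 did so through D135, and HSPA4L, TOMM34 and BAG5 through D85 and D105. The procedure was tested on simulated data in which some loci differed at D105 and no library was shifted as a whole. That test does not cover the shift of the median locus at D135. Of 206 entries in the gene lists and marker lists 193 matched a locus. For 495 gene names that were only a number the symbol came from RefSeq (ARS-UI_Ramb_v3.0 assembly), whose table also gave gene order. The genes and lists were chosen with earlier results of these data known. All 10 genes are named, and of each list up to 3 called genes per direction with the largest change from D85 to D135, with HSPA8, HSP90AB1, HSF1, SMYD1, STUB1, DES and FLNC. Other genes are named for the likeness of their course (the 3 nearest loci of each gene, of which 1 is not reported here), their place beside HSPB2 or as markers. TTN, the BAG5 and ANKRD2 values by library, and the ratios, were added once their values were known.

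The settings varied were the pseudocount (0.1 or 5), the filter (none or 5 FPKM), the scaling, the variance model, library weights, a replicate block, the libraries fitted and each library in turn. Treating values under 0.01 FPKM as missing was chosen after seeing the data. Summing the loci of a name changed nothing, since each had 1. Tables, exact tests and figures used Python 3.11.15 (pandas 2.3.3, numpy 2.4.6, scipy 1.17.1, matplotlib 3.10.9).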

Additional observations from a re-analysis of the deposited data

How the results depend on the processing

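Each of the 5 calls among the 9 genes was lost in 2 to 5 of the 9 fits that left out a library. In D135 against D85, 4 of the 9 genes were called, 7 when only the libraries of those days were fitted, and 1 to 6 when a library was left out. In D135 against D105, 1 gene was called, and it was lower. There were 0 calls without a filter and 0 to 4 with a library left out. After median-of-ratios scaling 2 were called higher and 0 lower. Quantile normalization gave 1 higher and 1 lower, as did setting values under 0.01 FPKM to missing. Library weights gave 2 higher and 2 lower, with 646 of all loci higher and 4920 lower. Without D105 replicate 1 there was 1 higher and 0 lower. Over all loci, the 26 calls of D105 against D85 became 45 without a filter, 12 with a filter at 5 FPKM, 8 with a replicate block, and 14 to 27 with a library left out. The 5164 of D135 against D105 became 3271 with the 5 FPKM filter, 2244 after median-of-ratios scaling, 2058 after quantile normalization and 3416 to 5091 with a library left out. The 6097 of D135 against D85 became 3715, 3644 and 3542 under the first 3 of these settings.

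Directions turned in the following cases. With a library left out, the D105 against D85 change ranged from -0.97 to 1.83 for HSPB2, -0.39 to 0.21 for CRYAB, -0.27 to 0.091 for BAG3 and -0.027 to 0.23 for HSP90AA1. That of D135 against D105 ranged from -0.48 to 0.83 for HSPB3 and -0.075 to 0.51 for HSPB6, and HSPB2 was at -0.26 with its lowest values missing. The cause was not tested. Over all tested loci no pairing by replicate number was seen: deviations of same-numbered libraries correlated at -0.0659 to 0.0605 (9 pairs) and others at -0.0933 to 0.052 (18 pairs). Such a correlation cannot show pairing that touches few loci. With the replicate block the D135 against D85 call of HSPB2 was lost (limma adjusted p = 0.0683), and those of HSPB3 (adjusted p = 0.0270) and HSP90AA1 (adjusted p = 0.0149) were gained. With D105 and D85 fitted alone, HSPB2 had too few libraries of 1 FPKM or more to be tested. Depth in reads is unknown, so no counting error can be set on the low values of HSPB2 or BAG3.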
